A study of Mus musculus with 16 samples.

Results

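The comparison of older with younger mice in the hippocampus rested on 8 Affymetrix arrays out of 16 in the series, the other 8 being from the cerebellum. Arrays were chosen by their titles, taking every hippocampus sample of both genotypes, although the free-text description of all 8 names the cerebellum. The older group held 4 samples labelled 24 to 26 months and the younger group 4 samples labelled 21 to 23 months, with 2 mutants and 2 wild types in each. The mutants overexpressed a mutant form of Twinkle, a mitochondrial helicase needed to copy mitochondrial DNA, and serve as an animal model of progressive external ophthalmoplegia, a disease of the eye muscles. The others are labelled wt. Older mutants were both 24 months old and younger mutants both 21 months, whereas older wild types were 26 and 24 months and younger wild types 21 and 23 months. The promoter that drives the transgene, the sex and strain of the animals and any pooling of tissue were not given in the labels used here.

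The hippocampus holds pyramidal and granule neurons together with astrocytes, oligodendrocytes and microglia, the resident macrophages of the brain. In rodents, microglia and astrocytes are known to take on a reactive state late in life, in which microglia express lysosomal, phagocytic and complement genes and astrocytes express intermediate filaments. Complement C1q and the receptors that signal through Tyrobp are parts of the system by which microglia recognise and engulf material.

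Every value below is a log2 difference from the median hippocampus array, since the deposited values were already centred gene by gene. A difference of 1 is a 2-fold change. No level of expression is left in such values, so they cannot show whether the tissue expressed the defining markers of the hippocampus, and only differences between arrays are described. With 8 arrays centred on their median, a gene measured by 1 probe set whose groups do not overlap has its lowest older and highest younger value equally far from 0. Differences are older minus younger with genotype as a term in limma, a linear model fitted to all 18168 genes, and p-values were adjusted by the Benjamini-Hochberg method with a threshold of 0.05. The labels call the samples biological replicates but name no animals, and the p-values can speak only of the spread among these arrays. Replicates 1 and 2 were always the older animals and 3 and 4 the younger, and anything else shared by these replicate numbers cannot be told apart from age.

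A total of 3 arrays carried markers of neighbouring tissue, taken as a list mean above 0.5. The mean of 22 meningeal and fibroblast markers was 1.08 on the array of older mutant replicate 1 and at most 0.04 on any other. The mean of 19 markers of cerebellar granule neurons was 1.52 on older wild-type replicate 1, the animal of 26 months, and 0.46 on older mutant replicate 1, and the 17 Purkinje cell markers were also raised on the former (1.09). Markers of CA1 pyramidal neurons were low on that same array, with a mean of -0.85. The mean of 22 choroid plexus markers was 1.55 on younger mutant replicate 4 and 0.56 on older wild-type replicate 1. The part of these tissues in the differences below was not tested. Counts for many of the lists are therefore given with all 8 arrays and with the 5 that remain without these 3. The 5 were older mutant replicate 2, older wild-type replicate 2, younger mutant replicate 3 and younger wild-type replicates 3 and 4. Younger wild-type replicate 3 was kept with a mean of 0.44 over 16 blood cell markers, which is below the cutoff of 0.5. At an unadjusted p under 0.05, 2.08% of all genes were higher and 1.3% lower on these 5, against 2.68% and 2.75% on all 8. Spread over genes was widest on older wild-type replicate 1, with an SD of 0.262 against 0.106 to 0.147 on the others.

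**Figure D1:**
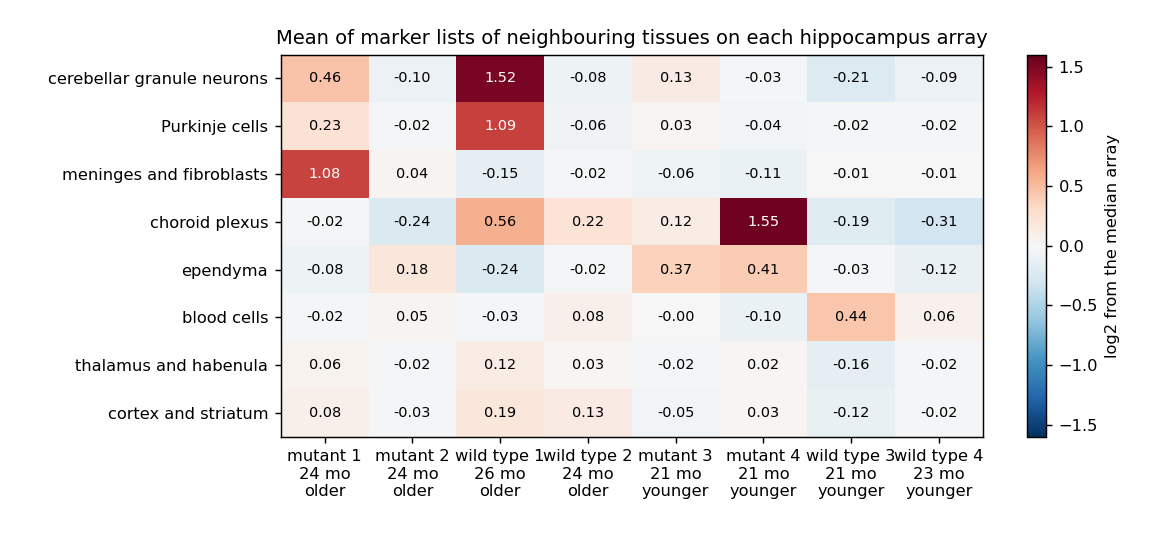
Mean log2 value of 8 marker lists of neighbouring tissues (rows) on each of the 8 hippocampus arrays (columns, with genotype, replicate and age), relative to the median array. Cerebellar granule neuron markers reach 1.52 on older wild-type replicate 1, meningeal markers 1.08 on older mutant replicate 1 and choroid plexus markers 1.55 on younger mutant replicate 4.

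No gene passed the threshold between older and younger hippocampus, where the smallest adjusted p in limma was 0.721. At an unadjusted p under 0.05 there were 987 genes, or 5.43% of all genes, against 908.4 by chance, of which 487 (2.68%) were higher and 500 (2.75%) lower in older mice. The groups did not overlap for 324 genes that were higher (1.78%) and 312 that were lower (1.72%). The median difference over all genes was -0.0094 and its median standard error (SE) was 0.0674. The 12 higher genes of smallest p included several that are known from microglia and macrophages, and are described first.

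Cd68, a lysosomal glycoprotein of microglia and macrophages, had values of 0.23 and 0.32 in older mutants, 0.87 and 0.23 in older wild types, -0.35 and -0.40 in younger mutants and -0.53 and -0.23 in younger wild types. All 4 older arrays lay above all 4 younger ones, with the 26-month wild type highest. The difference was 0.79 (SE 0.14) and the adjusted p 0.721 in limma. When age entered as a number of months in place of a class, Cd68 was the single gene called (0.0055% of all genes), at 0.78 per 3 months (SE 0.07, limma adjusted p = 0.0398). In that fit 1943 genes had an unadjusted p under 0.05 (4.81% higher and 5.89% lower), against 908.4 by chance. Its 26-month end was older wild-type replicate 1 alone, the array with cerebellar markers. With quantile normalization Cd68 was again the single gene called, at 0.73 (limma adjusted p = 0.02). Over all 17 alternatives its adjusted p ranged from 0.02 to 0.938 and its difference from 0.63 to 0.89, the lowest being without the 26-month wild type.

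C1qc, a chain of the complement recognition protein C1q, had values of 0.16 and 0.34 in older mutants, 0.78 and 0.25 in older wild types, -0.29 and -0.22 in younger mutants and -0.16 and -0.18 in younger wild types. Older and younger arrays were fully apart, and the difference was 0.59 (SE 0.11). S100a4, a calcium-binding protein of macrophages and fibroblasts, lay at 0.25 and 0.19 in older mutants, 0.92 and 0.59 in older wild types, -0.28 and -0.28 in younger mutants and -0.19 and -0.42 in younger wild types, again without overlap and with a difference of 0.78 (SE 0.13). Slc15a3, a lysosomal transporter of peptides and histidine, had the smallest p of all genes at a difference of 0.54 (SE 0.08). Its difference was 0.56 among wild types and 0.51 among mutants. Slc11a1, the divalent metal transporter of the phagosome, lay at 0.51 (SE 0.09). Clec4a3, a C-type lectin receptor of myeloid cells, lay at 0.49 (SE 0.08) and Slamf9, a receptor of the SLAM family, at 0.41 (SE 0.08). The chemokine gene Ccl8 was at 0.69 (SE 0.12) and Ch25h, cholesterol 25-hydroxylase, at 0.65 (SE 0.12). Grn, which encodes the lysosomal and secreted protein progranulin, had a small difference with a small error, 0.27 (SE 0.05). Postn, the matrix protein periostin, was at 0.57 (SE 0.11) and Adm, the vasodilator peptide adrenomedullin, at 0.38 (SE 0.07). The older and younger arrays did not overlap for 11 of these 12 genes, Adm being the exception. Over all genes, 1.78% were higher without overlap. The 12 were picked by their p on these same arrays, so the count is a description. Each of the 12 had an adjusted p of 0.721 in limma.

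**Figure D2:**
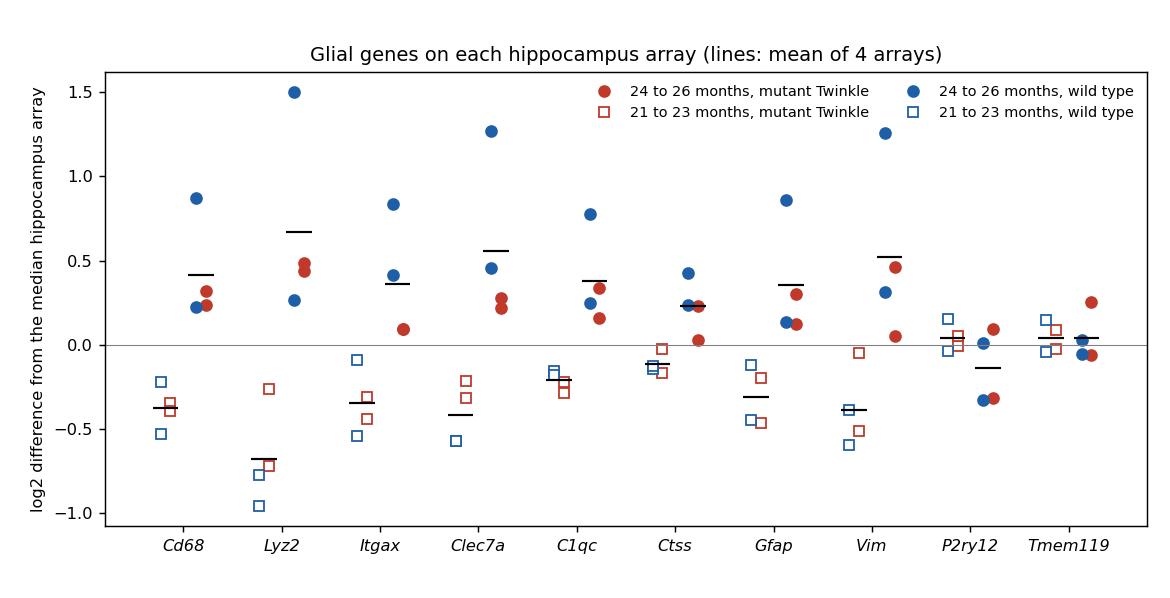
Log2 value of 10 glial genes on each hippocampus array, relative to the median array, for older (filled circles) and younger (open squares) mice of both genotypes, with lines at the mean of 4 arrays. The 8 genes from Cd68 to Vim have no older array below a younger one, whereas the groups overlap for P2ry12 and Tmem119.

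The promoters of these genes were read for the letters bound by PU.1, the transcription factor on which microglia and macrophages depend for their identity. The consensus GAGGAAGT was searched on both strands in the stretch from 250 bases before to 50 bases after each start site, using RefSeq promoters of GRCm38.p6. Of the 12 higher genes of smallest p, 11 had a promoter in the table and 3 of these held the letters, or 27.3%, against 3.69% of 27025 genes. Of the measured microglial markers, 16 had a promoter and 2 held the letters. The 12 genes were picked by their values, so the share is a description, and a match is not a binding site. The 3 promoters with a match are shown with the match in capitals, and that of Cd68 for comparison. C1qc lies on the minus strand at chr4:136892865-136893164, S100a4 on the plus strand at chr3:90603520-90603819, Slamf9 on the plus strand at chr1:172475110-172475409 and Cd68 on the minus strand at chr11:69666121-69666420, and each is written 5′ to 3′ along its gene.
C1qc: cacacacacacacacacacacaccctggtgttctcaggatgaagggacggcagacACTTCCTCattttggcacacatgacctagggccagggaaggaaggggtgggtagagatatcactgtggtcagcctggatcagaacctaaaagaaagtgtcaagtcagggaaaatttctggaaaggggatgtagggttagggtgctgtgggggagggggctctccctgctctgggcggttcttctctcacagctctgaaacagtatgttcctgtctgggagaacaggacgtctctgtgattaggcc
S100a4: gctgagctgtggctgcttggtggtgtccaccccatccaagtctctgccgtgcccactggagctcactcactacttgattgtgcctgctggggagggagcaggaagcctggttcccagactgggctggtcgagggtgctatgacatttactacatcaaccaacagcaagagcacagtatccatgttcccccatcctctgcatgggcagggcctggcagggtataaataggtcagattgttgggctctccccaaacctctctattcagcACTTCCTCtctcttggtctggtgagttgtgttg
Slamf9: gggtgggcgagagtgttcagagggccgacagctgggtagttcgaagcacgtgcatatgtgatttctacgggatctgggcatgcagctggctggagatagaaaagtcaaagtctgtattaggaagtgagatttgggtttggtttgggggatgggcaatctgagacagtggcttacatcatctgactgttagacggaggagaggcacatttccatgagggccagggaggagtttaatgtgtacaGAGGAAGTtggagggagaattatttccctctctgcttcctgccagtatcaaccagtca
Cd68: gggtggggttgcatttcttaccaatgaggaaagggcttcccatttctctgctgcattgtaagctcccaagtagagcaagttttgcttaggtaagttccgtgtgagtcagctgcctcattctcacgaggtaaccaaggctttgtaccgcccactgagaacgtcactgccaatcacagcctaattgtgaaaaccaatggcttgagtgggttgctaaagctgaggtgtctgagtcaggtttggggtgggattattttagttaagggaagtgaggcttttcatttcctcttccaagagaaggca
In C1qc and S100a4 the capitals read as the reverse complement of the motif, and in Slamf9 as the motif itself, beginning 8 bases before the start site. No match was found in the Cd68 window, which says only that these letters are not in it.

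A list of genes known from other work to be higher in ageing rodent brain was chosen with earlier results of these data known. Its counts are therefore a description, and some of its genes, such as Cd68, also belong to lists below. The list had 24 measured members. Of these, 22 lay above 0, as did 45.3% of all genes, and 17 were higher at an unadjusted p under 0.05, with 0 lower, against 2.68% higher over all genes. The groups did not overlap for 15 of the 24, where 1.78% of all genes were higher without overlap. The median difference was 0.33, with 0.26 in mutants and 0.41 in wild types. Without the 3 arrays with markers of neighbouring tissue, 12 were higher, against 2.08% of all genes in the same fit, and the median was 0.22. Leaving out single arrays gave 14 to 18 higher genes.

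Lyz2, the lysozyme of macrophages, had the widest difference of the list. Its values were 0.49 and 0.44 in older mutants, 1.50 and 0.27 in older wild types, -0.27 and -0.72 in younger mutants and -0.77 and -0.96 in younger wild types. Every older array lay above every younger one, the 26-month wild type by far the highest, and the difference was 1.35 (SE 0.27), or 1.03 without that array. Clec7a, the beta-glucan receptor dectin-1 that marks activated microglia, lay at 0.22 and 0.28 in older mutants, 1.27 and 0.46 in older wild types, -0.22 and -0.31 in younger mutants and -0.57 and -0.57 in younger wild types. Again no older array fell below a younger one, and the difference was 0.97 (SE 0.22). Lgals3, galectin-3, was at 0.85 (SE 0.23), Cst7, a cystatin of the endolysosome, at 0.77 (SE 0.19), and Itgax, the integrin CD11c, at 0.71 (SE 0.14), all without overlap. The lipocalin gene Apod, which binds lipids in glia, was at 0.32 (SE 0.07); mutants gave 0.37 and wild types 0.26. Cdkn2a, an inhibitor of the cell cycle and marker of senescence, was at 0.02 (SE 0.10) and its groups overlapped. Cdkn1a, the p53 target p21, lay at 0.21 (SE 0.12), or 0.08 without the 26-month wild type.

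The list mean lay above 0 on all 4 older arrays and below 0 on all 4 younger ones, groups that differ in replicate number as well as age. The 3 animals of 24 months lay at 0.18, 0.12 and 0.15. The animal of 26 months, whose array carried cerebellar markers, lay at 0.56. Those of 21 months lay at -0.14, -0.16 and -0.16. The 23-month wild type was the lowest, at -0.27, so within the younger group the order did not follow age.

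**Figure D3:**
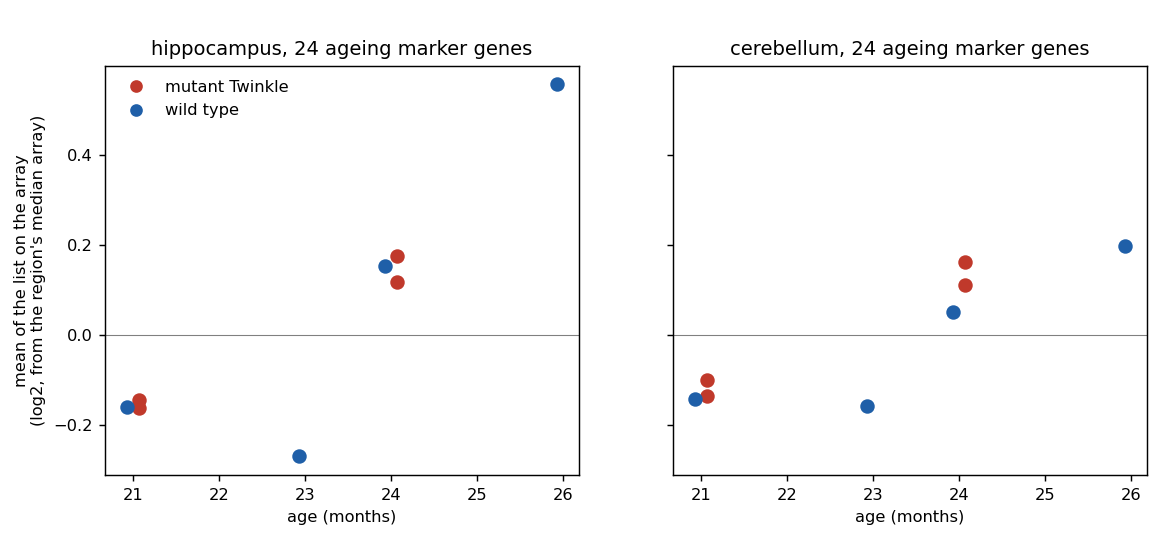
Mean log2 value of the 24 measured ageing marker genes on each array against age in months, in hippocampus (left) and cerebellum (right), coloured by genotype. All arrays of 24 and 26 months lie above 0 and all of 21 and 23 months below 0 in both regions.

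Microglial markers had 21 measured members. Of these, 10 were higher at an unadjusted p under 0.05 and 0 lower, against 2.68% and 2.75% of all genes, with a median of 0.15. Without the 3 arrays named above 9 were higher, against 2.08% of all genes, with a median of 0.26. The C1q chains C1qa and C1qb lay at 0.53 (SE 0.12) and 0.55 (SE 0.13), each with no overlap. Tyrobp, the adaptor through which many microglial receptors signal, was at 0.43 (SE 0.12) and Fcer1g at 0.32 (SE 0.07). The cysteine protease gene Ctss was at 0.35 (SE 0.08). The groups did not overlap for 10 of the 21, where 1.78% of all genes were higher without overlap.

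The other 11 members, 5 of which are given here, did not reach that p. P2ry12, the purinergic receptor of surveying processes, had values of -0.32 and 0.09 in older mutants, -0.33 and 0.01 in older wild types, -0.01 and 0.05 in younger mutants and -0.04 and 0.15 in younger wild types. The groups overlapped, with 2 older arrays low and 2 within the younger range. The low arrays were replicate 1 of each genotype, which carried meningeal or cerebellar markers. The difference was -0.18 (SE 0.11), and 0.01 without the 3 arrays with such markers. Tmem119, a membrane protein of microglia, lay at 0.00 (SE 0.08) and Siglech, a sialic acid lectin, at -0.11 (SE 0.10). Without the 3 arrays they were at 0.10 and 0.07, so the sign of P2ry12 and Siglech turned. Cx3cr1, the fractalkine receptor, was at 0.15 (SE 0.10), or 0.26 without them. Trem2, the lipid-sensing receptor, was at 0.12 (SE 0.08), or 0.05 without the 26-month wild type. A p above 0.05 does not show that these genes were the same at both ages. In bulk tissue, more microglia and more RNA of a gene per microglial cell cannot be told apart.

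Complement genes had 15 measured members, with a median of 0.17. Of these, 7 were higher and 0 lower at an unadjusted p under 0.05, against 2.68% and 2.75% of all genes. Besides the C1q chains the 7 included C3ar1, the receptor for complement fragment C3a, at 0.55 (SE 0.13). Another was the protease gene Cfi, complement factor I, at 0.22 (SE 0.05). Serping1, the C1 inhibitor, had values of 1.11 and -0.03 in older mutants, 0.16 and 0.16 in older wild types, -0.32 and -0.35 in younger mutants and 0.03 and -0.30 in younger wild types. Its difference of 0.58 (SE 0.23) rested largely on older mutant replicate 1, the array with meningeal markers, and was 0.29 without the 3 arrays. Without them the list had 6 higher genes, against 2.08% of all genes, and a median of 0.05.

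Lysosomal genes had 23 measured members, with 21 above 0 (45.3% of all genes) and a median of 0.11. Of the 23, 8 were higher and 0 lower at an unadjusted p under 0.05, against 2.68% and 2.75% of all genes. The protease genes Ctsh and Ctsd, for cathepsins H and D, lay at 0.57 (SE 0.15) and 0.30 (SE 0.10), and Gusb, beta-glucuronidase, at 0.29 (SE 0.07). Ctsd was at 0.19 without the 26-month wild type, and Ctsh at 0.33 without the 3 arrays. On the 5 other arrays 5 were higher, against 2.08% of all genes, and the median was 0.09.

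Interferon and antigen presentation genes had 26 measured members, with 21 above 0 (45.3% of all genes) and a median of 0.19. Of the 26, 11 were higher and 0 lower at an unadjusted p under 0.05, against 2.68% and 2.75% of all genes. The class II genes were led by Cd74, the invariant chain, whose values were 0.20 and -0.06 in older mutants, 0.50 and 0.06 in older wild types, -0.88 and -0.64 in younger mutants and 0.19 and -0.44 in younger wild types. Its groups overlapped, since younger wild-type replicate 3 lay among the older arrays, and the 2 younger mutants were lowest. The difference was 0.62 (SE 0.17), and that of the class II chain H2-Ab1 was 0.58 (SE 0.16). The class I genes H2-K1 and H2-D1 lay at 0.36 (SE 0.12) and 0.24 (SE 0.09), and B2m, their light chain, at 0.28 (SE 0.11). Without the 26-month wild type these 3 values were 0.23, 0.16 and 0.17. Class I genes are close relatives of each other, as are Lyz1 and Lyz2, and cross-hybridisation between them was not tested. Ifit2, an interferon-induced protein, was at 0.32 (SE 0.10). Usp18, which limits interferon signalling, was at 0.59 in mutants and 0.01 in wild types, with an interaction p of 0.00755 before adjustment (0.901 adjusted in limma). In the 5-array fit 6 genes were higher, against 2.08% of all genes, and the median was 0.12.

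Astrocytic markers had 19 measured members, with a median of 0.15. Of the 19, 6 were higher and 0 lower at an unadjusted p under 0.05, against 2.68% and 2.75% of all genes. Gfap, the intermediate filament of astrocytes, had values of 0.30 and 0.12 in older mutants, 0.86 and 0.13 in older wild types, -0.20 and -0.47 in younger mutants and -0.12 and -0.45 in younger wild types. All older arrays exceeded all younger ones, by a difference of 0.66 (SE 0.16), or 0.38 without the 3 arrays. Vim, the intermediate filament vimentin, was at 0.91 (SE 0.24), or 0.51 without them, and Serpina3n, a protease inhibitor of reactive astrocytes, at 0.38 (SE 0.14) and 0.19. Aldoc, an aldolase of astrocytes, lay at 0.30 (SE 0.06) without overlap, and the water channel gene Aqp4 at 0.27 (SE 0.14) with overlap, or 0.11 without the 26-month wild type. With the 5 other arrays alone 3 markers were higher, against 2.08% of all genes.

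**Figure D4:**
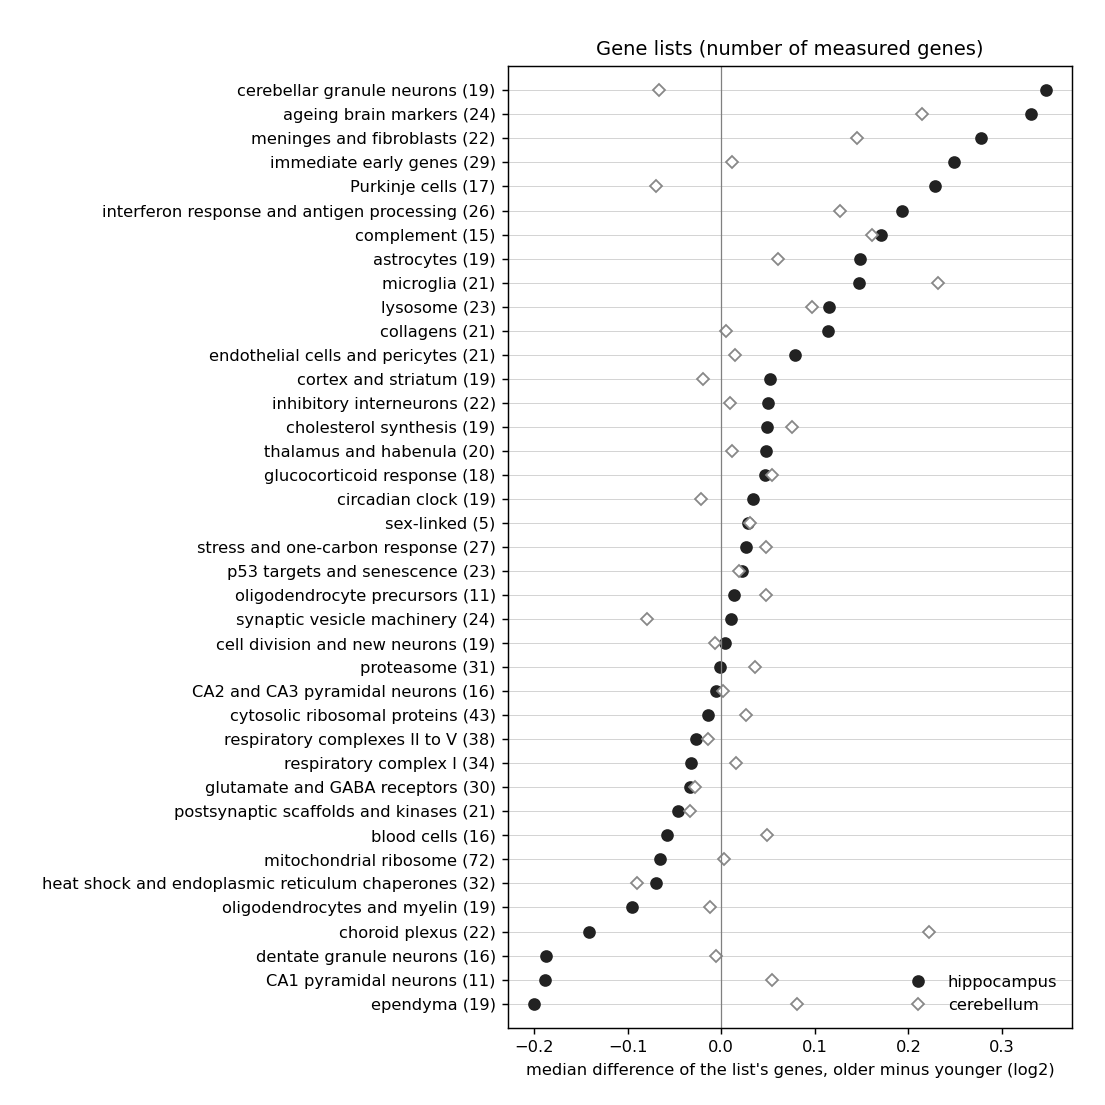
Median age difference (older minus younger, log2) of the measured genes of each of 39 lists, with the number of measured genes in brackets, in hippocampus (filled circles) and cerebellum (open diamonds). The ageing marker list lies at 0.33 in hippocampus and 0.21 in cerebellum, whereas the lists of cerebellar granule neurons and Purkinje cells lie above 0 in hippocampus and below 0 in cerebellum.

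The 12 lower genes of smallest p included some that are known from motile cilia, the beating organelles of ependymal cells that line the ventricles. Spaca9, a ciliary protein, had values of -0.07 and -0.05 in older mutants, -0.36 and -0.14 in older wild types, 0.23 and 0.36 in younger mutants and 0.05 and 0.06 in younger wild types. The groups did not overlap and the difference was -0.33 (SE 0.06). Mns1, an axonemal protein, was at -0.43 (SE 0.10) and Dnah6, a heavy chain of axonemal dynein, at -0.31 (SE 0.07), both with overlapping groups. The others were Kif28, a kinesin, at -0.28 (SE 0.06), Nit2, omega-amidase, at -0.22 (SE 0.05), Ido1, which degrades tryptophan, at -0.23 (SE 0.05), Stra6, the receptor for retinol uptake, at -0.31 (SE 0.07) and Abhd1, a predicted hydrolase, at -0.26 (SE 0.06). The uncharacterised transcripts 4930483O08Rik, 1700016K19Rik, 9430065F17Rik and Znrd1as lay between -0.38 and -0.33. Their adjusted p-values in limma were 0.721 to 0.811.

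The ependymal list had 19 measured members, of which 18 lay below 0 (54.7% of all genes did), with a median of -0.20. Of the 19, 4 were lower at an unadjusted p under 0.05, against 2.75% of all genes. The median was -0.29 in mutants and -0.05 in wild types, a difference not tested for the list. Rsph4a, a radial spoke protein of cilia, lay at -0.20 and 0.21 in older mutants, -0.12 and -0.01 in older wild types, 0.87 and 0.71 in younger mutants and -0.03 and 0.01 in younger wild types. Both younger mutants were high and the other 6 arrays were not, so the age difference was -0.78 in mutants and -0.05 in wild types. In limma the interaction had an adjusted p of 0.901 and 0.00564 before adjustment. Tekt4, a tektin of the axoneme, was at -0.25 (SE 0.09), or -0.15 without older mutant replicate 1. Fam183b lay at -0.40 (SE 0.14), or -0.12 without the 3 arrays with markers of neighbouring tissue. List means were 0.37 and 0.41 on the younger mutants, the second of which also carried the choroid plexus markers. Without the 3 arrays 1 member was lower, against 1.3% of all genes in that fit, and the median was -0.05.

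The mitochondrial ribosome, which translates the proteins encoded by mitochondrial DNA, had 72 measured members, with 61 below 0 and a median of -0.06. Of the 72, 6 were lower and 1 higher at an unadjusted p under 0.05, against 2.75% and 2.68% of all genes. Members lower without overlap numbered 7 of the 72, against 1.72% of all genes. Among them Mrpl24, Mrpl36 and Mrps12, structural proteins of its subunits, lay at -0.14 (SE 0.05), -0.18 (SE 0.06) and -0.15 (SE 0.05). The array means were 0.05 and 0.09 on younger mutants and -0.01 on each younger wild type, and the older arrays ranged from -0.05 to 0.00, so the younger mutants were the high arrays. When the 3 arrays were left out 0 members were lower, against 1.3% of all genes in that fit. Respiratory complex I had 29 of 34 members below 0 with a median of -0.03, and complexes II to V had 31 of 38 with -0.03. Their members at an unadjusted p under 0.05 numbered 2 and 1, all lower, against 2.75% lower over all genes. Without the 3 arrays there were 0, against 1.3% lower over all genes in that fit. Medians in mutants and wild types were -0.07 and -0.01 for complex I and -0.07 and 0.0031 for complexes II to V. Below 0 lay 54.7% of all genes.

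Neuronal and oligodendrocyte markers varied with single arrays. Of 16 markers of dentate granule neurons, 13 lay below 0 (54.7% of all genes did) with a median of -0.19, -0.02 in mutants and -0.35 in wild types. At an unadjusted p under 0.05, 2 were lower, against 2.75% of all genes. Without the 3 arrays 3 were lower, against 1.3% of all genes, and the median was -0.13. Trpc6, a cation channel, had values of -0.31 and -0.30 in older mutants, -0.80 and -0.02 in older wild types, 0.18 and 0.02 in younger mutants and 0.30 and 0.05 in younger wild types. No overlap was seen, but the 26-month wild type lay far below the rest, and the difference of -0.50 (SE 0.15) became -0.33 without it. Dock10, a guanine nucleotide exchange factor, was at -0.39 (SE 0.16) and -0.19 without that array, and Tdo2, tryptophan dioxygenase, at -0.40 (SE 0.19) and -0.18. The 11 CA1 markers had a median of -0.19 with all arrays and 0.00 without the 3. Of 19 oligodendrocyte genes, 17 lay below 0 (54.7% of all genes did), with a median of -0.10. At an unadjusted p under 0.05, 2 were lower, against 2.75% of all genes. They were Ugt8a, which makes the myelin lipid galactocerebroside, at -0.32 (SE 0.11), and the lineage factor Olig2 at -0.19 (SE 0.08), or -0.12 without younger mutant replicate 4. The myelin gene Mal was at -0.31 (SE 0.16), or -0.19 without the 26-month wild type. Without the 3 arrays 0 were lower, against 1.3% of all genes in that fit, and Ugt8a was at -0.15.

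Immediate early genes, the first transcripts to respond to neuronal firing, had 24 of 29 members above 0 (45.3% of all genes) and a median of 0.25. But 2 were higher at an unadjusted p under 0.05, against 2.68% of all genes. Without the 3 arrays 0 were higher, against 2.08% of all genes in that fit. Fos, their best known member, lay at 0.80 and -1.16 in older mutants, 0.54 and 1.23 in older wild types, -0.13 and -1.03 in younger mutants and 0.13 and -1.80 in younger wild types. Both groups spanned more than 1 log2 unit and overlapped, and the difference was 1.06 (SE 0.56), or 0.54 without younger wild-type replicate 4. Without that array the median of the list was 0.08. Gadd45b, a stress sensor, was at 0.41 (SE 0.14), Fosl2 at 0.24 (SE 0.10) and Atf3 at 0.26 (SE 0.12), or 0.15 without the 26-month wild type. The list means ranged from -0.24 to 0.70 in older and from -0.31 to 0.40 in younger mice, a wider range within each age than the difference between them.

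Collagen genes had 5 higher and 1 lower of 21 at an unadjusted p under 0.05, against 2.68% and 2.75% of all genes. Without the 3 arrays 1 was higher, against 2.08% of all genes in that fit. Col6a1 lay at 0.84 (SE 0.28), Col16a1 at 0.39 (SE 0.14) and Col15a1 at 0.23 (SE 0.09) with all arrays. Col6a1 and Col16a1 were at 0.52 and 0.24 without the 26-month wild type, and at 0.35 and 0.12 without the 3 arrays. Heat shock and endoplasmic reticulum chaperones had 26 of 32 below 0 (54.7% of all genes) and a median of -0.07. Of the 32, 3 were lower and 1 higher at an unadjusted p under 0.05, against 2.75% and 2.68% of all genes. Without the 3 arrays 0 were lower and 1 higher, against 1.3% and 2.08%. Manf, a secreted protein of the endoplasmic reticulum, was at -0.29 (SE 0.10) and the disulfide isomerase gene Pdia3 at -0.17 (SE 0.06). The co-chaperone gene Bag3 was at 0.36 (SE 0.12). Without the 3 arrays these genes were at -0.13, -0.15 and 0.19. Lists of neighbouring tissue had medians of 0.35 for cerebellar granule neurons, 0.23 for Purkinje cells, 0.28 for meninges and -0.14 for choroid plexus with all arrays, and of -0.03, -0.01, 0.03 and 0.12 without the 3. The other lists, of 5 to 43 measured genes, each held 0 to 3 members past an unadjusted p of 0.05 in a given direction. Over all genes 2.68% were higher and 2.75% lower. These lists were p53 targets and senescence, stress and one-carbon response, cholesterol synthesis, circadian clock, glucocorticoid response, cytosolic ribosome, proteasome, synaptic vesicles, postsynaptic scaffolds, transmitter receptors, cell division and new neurons, oligodendrocyte precursors, CA2 and CA3 neurons, interneurons, endothelium, blood, cortex and striatum, thalamus, and sex-linked genes. Of 20 thalamus and habenula markers, 3 were higher, and 3 were higher without overlap, against 1.78% of all genes. Without the 3 arrays 2 were higher, against 2.08%. Of 27 stress and one-carbon genes, 3 were lower and 2 higher.

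The 2 genotypes were then compared for their age difference. limma called 0 genes for the interaction, with a smallest adjusted p of 0.901, and 849 genes (4.67%) had an unadjusted p under 0.05. Cd68 was at 0.65 in mutants and 0.93 in wild types, and C1qc at 0.51 and 0.68. For Cst7 the values were 0.28 and 1.26 (limma interaction, unadjusted p = 0.00166, adjusted p = 0.901), and for Clec7a 0.51 and 1.44 (unadjusted p = 0.02, adjusted p = 0.901), the wider difference being in wild types, whose older pair included the 26-month animal. Neither passed after adjustment. Of the 24 ageing markers, 4 had a smaller age difference in mutants and 0 a larger one at an unadjusted p under 0.05, against 1.89% and 2.79% of all genes. Genes of smallest interaction p included Ttr, the choroid plexus transporter of thyroid hormone, at -2.47 in mutants and 2.32 in wild types. Its highest values were 2.00 on younger mutant replicate 4 and 1.87 on older wild-type replicate 1, the arrays on which the choroid plexus markers were highest. The early gene Fosb lay at -0.18 and 0.85, the Notch target Hey2 at -0.10 and 0.56, the muscarinic receptor gene Chrm3 at 0.17 and -0.54, and the adenylyl cyclase gene Adcy1 at 0.30 and -0.44. All had an adjusted p of 0.901 in limma.

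The same contrast was made in the cerebellum, with 4 older and 4 younger arrays that match the hippocampus arrays one by one in genotype, replicate number and age, where limma called 4 genes (0.022%) and all rose with age. They were Lgals3 at 0.84 (SE 0.08), Cd68 at 0.72 (SE 0.08), Lyz1, the second macrophage lysozyme, at 0.58 (SE 0.07), and Lyz2 at 0.82 (SE 0.10), with adjusted p-values of 0.00697, 0.0281, 0.0281 and 0.0287 in limma. In the hippocampus these 4 genes lay at 0.85, 0.79, 0.94 and 1.35, and the groups did not overlap for any of them. Of the 24 ageing markers, 12 were higher and 0 lower in cerebellum at an unadjusted p under 0.05 (2.6% of all genes were higher and 1.42% lower), with a median of 0.21. Of the 21 microglial markers, 12 were higher and 0 lower, with a median of 0.23.

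**Figure D5:**
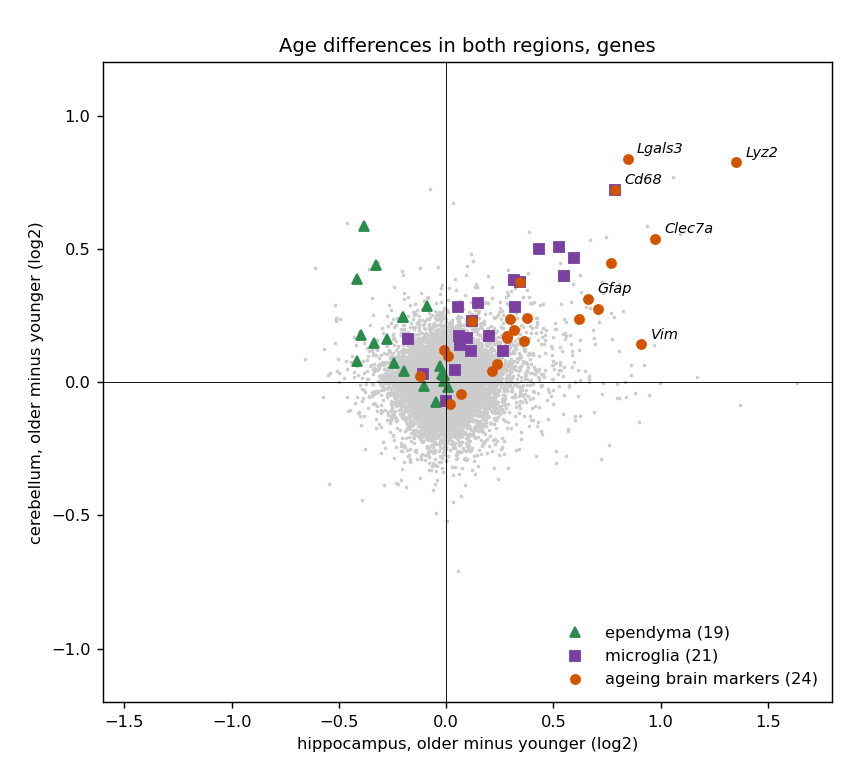
Age difference of each gene in hippocampus (x axis) and cerebellum (y axis), older minus younger on the log2 scale, with members of 3 lists marked and 2 genes outside the plotted range. Lyz2, Lgals3, Cd68 and Clec7a lie high in both regions, and 18 of the 19 ependymal genes lie below 0 in hippocampus.

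When the difference between regions was tested itself, limma called 0 genes, with a smallest adjusted p of 0.942 and 735 genes (4.05%) at an unadjusted p under 0.05. This fit takes the arrays as separate animals. The labels do not say whether the regions came from the same animals, so the 2 regions may not be independent. With matched arrays as a random block, a choice made after seeing the data, 0 genes were called and 637 had an unadjusted p under 0.05, with a smallest adjusted p of 0.98 in limma and an estimated correlation of -0.062. Lgals3 differed by 0.01 between regions (SE 0.26), Cd68 by 0.07 (SE 0.17), Lyz1 by 0.35 (SE 0.23) and Lyz2 by 0.53 (SE 0.31). Vim was the ageing marker with the smallest p here, at 0.91 in hippocampus and 0.14 in cerebellum (limma, unadjusted p = 0.0138, adjusted p = 0.942). Of the 19 ependymal genes, 9 had a lower age difference in hippocampus than in cerebellum at an unadjusted p under 0.05, against 2.54% of all genes. Neighbouring tissue moved with this difference. Younger mutant replicate 4 had list means of 1.55 for choroid plexus and 0.41 for ependyma in hippocampus, and -0.99 and -0.24 in cerebellum, the lowest of the 8 cerebellum arrays for each, and the part of this in the regional difference was not tested. Arap1, a GTPase-activating protein, had the smallest p among genes with the higher difference in hippocampus, at 0.23 against -0.14. The neuropeptide precursor gene Vgf was at 0.24 against -0.36 and the endothelial receptor gene Tie1 at 0.16 against -0.27. Slc25a13, a mitochondrial aspartate and glutamate carrier, was at -0.19 against 0.31, and Klkb1, plasma kallikrein, at -0.20 against 0.25. When each hippocampus value was averaged with the cerebellum value of the same genotype and replicate number, an alternative chosen after seeing the data, 2 genes were called, Postn at 0.49 and Mmp12, a macrophage elastase, at 0.65, each with an adjusted p of 0.031 in limma. Mmp12 lay at 0.75 (SE 0.16) in the hippocampus alone, and it was chosen after its values were seen.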

How the data were processed

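Per the labels' protocols, RNA was isolated with Trizol and 5 ug of total RNA went into biotinylated cRNA for Affymetrix arrays. The submitters' processing notes name GCOS 4.0. How probes were summarised, normalized and centred is not given in the sources used here. The deposited values are on a log scale, taken as log2. Their base is not stated, and if it were e each difference would have to be multiplied by 1.44. For 100% of hippocampus probe sets the median over the 8 arrays lay within 1e-05 of 0.

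Samples were grouped by title and age. Titles, sources and tissue entries were followed for the hippocampus samples, whose free-text descriptions name the cerebellum. Of 45101 probe sets, 64 controls and 133 with an empty value were left out. The 34843 probe sets with 1 symbol in the platform annotation were averaged to 18168 genes, of which 9192 rest on 1 probe set, while 931 had several symbols and 9130 none. RefSeq matched 18008 genes. The fits used limma 3.58.1 (R 4.3.3) on the 8 hippocampus arrays with age class and genotype, leaving 5 residual degrees of freedom. Precision is limited by how many arrays there are. The interaction with genotype was tested on the same arrays and the difference between regions on all 16. Tests were two-sided. Alternatives were quantile normalization, single probe sets, all 16 arrays, array weights, age in months, no genotype term, a random replicate block, a robust variance, and leaving out arrays.

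The members, the 39 gene lists and the tests were chosen with earlier results of these data known. Named genes were the 12 of smallest p in each direction, 3 per list and 5 per direction for each difference of differences. Further list members named beside them, as well as Lyz1 and Mmp12, were chosen after their values were seen. In simulated data with 200 of 18168 genes changed, the hippocampus fit recovered 82% of 100 genes changed by 0.5 and 96% of 100 changed by 1, with 7 false among 185 calls. The simulated noise was independent between genes, the changed genes were drawn at random, and no array carried other tissue. These shares therefore check the fit and do not tell how many changes would be found in the measured arrays.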

Additional observations from a re-analysis of the deposited data

Results flagged for a closer look

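Each named gene and list mean was checked, within the 4 older and the 4 younger hippocampus arrays, for an array whose gap to the nearest other exceeded Dixon's critical value. Of 266 groups checked, 24 (9.02%) had such an array, where chance gives about 1 in 20 for independent groups of normally distributed values. The genes were mostly picked by their values, and genes and list means share the 8 arrays. The share is therefore a description and no test against chance. Older wild-type replicate 1, the animal of 26 months whose array also carried cerebellar markers, stood apart in 8 of the 24. It lay above the other older arrays for Cd68 at 0.87, Lyz1 at 1.05, Serpina3n at 0.67, Cdkn1a at 0.60, Bag3 at 0.54 and the mean of the ageing marker list at 0.56. It lay below them for Ugt8a at -0.45 and Tie1 at -0.0111.

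Younger mutant replicate 4, the array with choroid plexus markers, stood apart in 6. It was the highest younger array for Postn at -0.0569, Ido1 at 0.17, Mrps12 at 0.12 and Olig2 at 0.35, and the lowest for Clec4a3 at -0.46 and Arap1 at -0.31. Older mutant replicate 1, the array with meningeal markers, stood apart for Serping1 at 1.11 and for the list means of meninges and fibroblasts at 1.08, endothelial cells and pericytes at 0.26 and postsynaptic scaffolds at -0.062. Younger wild-type replicate 4 stood apart for Kif28 at 0.24, Ctsh at -0.44 and the mean of the ageing marker list at -0.27. The remaining arrays were older wild-type replicate 2 for Clec4a3 at 0.46, younger wild-type replicate 3 for Serping1 at 0.0323 and older mutant replicate 2 for the mean of the sex-linked list at 0.11.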

How the results depend on the processing

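The count of genes called between ages in hippocampus was 0 and became 1, Cd68, with quantile normalization (0.73) or age in months (0.78 per 3 months), and was 0 under the other alternatives run, including the random replicate block, whose estimated correlation was -0.021. Same-numbered mutants and wild types correlated at 0.189 for replicates 1 and 2 and -0.04 for 3 and 4, so the numbers were not taken as pairs, and a fixed block could not be fitted since age follows from the number. For the interaction with genotype, 0 genes became 2 with quantile normalization and 0 to 141 when single arrays were left out, the 141 without older wild-type replicate 2, which leaves the 26-month animal as the only older wild type and assumes that it varies like the other groups. The others were 3 without older mutant replicate 2 or younger mutant replicate 3 and 2 without younger wild-type replicate 4. The difference between regions stayed at 0 called, also with the matched arrays of the regions as a replicate block. In cerebellum the 4 calls became 1 to 2 when single arrays were left out, with Lgals3 called each time, and with each probe set on its own they were Lyz1, Lgals3 and Gfap (0.61, limma adjusted p = 0.0288) in place of Cd68 and Lyz2. Of 1598 values for 94 named genes under 17 alternatives, 1579 kept their direction with no call, 2 became calls (Cd68) and 17 changed sign. The last were values of 6 genes. Leaving out 1 array cut the difference of 31 of the 94 genes by over 1.5 times or turned it, and 19 of them without the 26-month wild type. Without the 3 arrays with other-tissue markers P2ry12 was 0.0126, Siglech 0.0666 and Ttr 0.1802. With array weights Tmem119 was -4e-04, and with age in months Ttr was 0.004. Leaving out single arrays gave ranges of -0.0693 to 0.0633 for Cdkn2a, -0.0767 to 0.0515 for Tmem119, -0.684 to 0.6693 for Ttr and -0.1766 to 0.0603 for Adcy1. The cause of these changes was not tested.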
